A study of Mus musculus with 6 samples.

Results

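The 10 genes described here encode G protein-coupled receptors that are known from pancreatic β-cells, namely *Glp1r*, *Gipr*, *Gcgr*, *Gpr119*, *Ffar1*, *Chrm3*, *Gpr39*, *F2r*, *Adra2a* and *Sstr3*. They were taken by gene symbol from the estimated read counts of 16640 genes in MIN6 cells, and all 10 had an entry. MIN6 is a mouse β-cell line derived from an insulinoma. RNA-seq libraries were made from control cells and from cells in which the endogenous *Thada* gene was activated, with 3 libraries per condition. The comparison asks whether activation of *Thada* moved the transcripts of these receptors. The control cells carried a lentiviral dCas9 with a non-targeting sgRNA. The *Thada*-activated cells carried the lentiviral SAM components as a stably selected line (puromycin and G418). These are a dCas9 fused to VP64 and a guide RNA with MS2 loops that recruits P65 and HSF1. The study gives high-glucose medium for MIN6 cells in general, and does not say whether the control cells were selected. The study describes its in vitro work in general as independent experiments, while the sample labels do not say whether the libraries of a condition came from separate cultures. The p-values measure the spread between these libraries, which may be technical.

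Values of a condition are listed in the order of replicates 1, 2 and 3, and the *Thada*-activated libraries are also called activated. Library size was 17272834, 17166511 and 17689611 counts for control and 17727004, 17385036 and 17224631 counts for the activated cells. Levels of a gene across libraries are given in CPM (read counts scaled to the size of each library after TMM normalisation). Levels of different genes are compared in the deposited FPKM values, which also divide by gene length. *Thada*, the target of the guide RNA, reached 28.0, 28.9 and 17.2 CPM in the control libraries and 57.3, 56.2 and 49.1 CPM in the activated ones. All *Thada*-activated libraries lay above all control libraries, so the labels held for the target. The edgeR estimate for *Thada* was a log2 fold change of 1.13 with a standard error of 0.22, which did not pass after adjustment over all genes (adjusted p = 1). A fit that blocks on the replicate number gave 1.15 with an adjusted p of 0.00041.

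In each condition, replicate 3 differed from the other libraries as a whole. The principal component that separated them held 77.0% of the variance between libraries. Results are therefore given for each replicate number as well as for the conditions.

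Receptors of this kind sense hormones, neurotransmitters and nutrients and set how much insulin a β-cell releases at a given glucose level. Those coupled to Gs stimulate adenylyl cyclase and raise cAMP, which amplifies glucose-stimulated secretion. Those coupled to Gq activate phospholipase C and release calcium from the endoplasmic reticulum, and those coupled to Gi lower cAMP and restrain secretion.

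The β-cell label was checked against 10 marker genes, of which 9 were above 3 counts in every library. *Ins2* was the most abundant, at 64400, 56400 and 103000 CPM in the control libraries and 64260, 62870 and 81880 CPM in the activated ones. *Iapp*, the amylin gene, stood at 37290, 34130 and 20640 CPM in the control libraries and 31650, 31380 and 24390 CPM in the activated ones. *Slc2a2*, the glucose transporter of rodent β-cells, was the exception, with 1, 4 and 1 counts in the control libraries and 3, 3 and 9 counts in the activated ones. The markers thus placed the cells as insulin-producing, with *Slc2a2* at or near the floor. Summed over the 10 genes, β-cell markers stood at 108500, 97450 and 131300 CPM in the control libraries and 102700, 100700 and 114400 CPM in the activated ones.

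Markers of other cells were low, with the exception of islet hormone genes. The α-cell hormone gene *Gcg* stood at 22.4, 19.4 and 13.8 CPM in the control libraries and 18.2, 20.4 and 17.8 CPM in the activated ones, and the α-cell transcription factor *Irx2* at 2.93 to 4.95 CPM. The δ-cell hormone gene *Sst* stood at 156, 129 and 68.9 CPM in the control libraries and 143, 131 and 57.9 CPM in the activated ones, while *Hhex*, a δ-cell transcription factor, had at most 1 count. *Ppy*, which marks pancreatic polypeptide cells, stood at 19.7, 17.8 and 27.9 CPM in the control libraries and 22.5, 21.6 and 38.9 CPM in the activated ones. Hormone genes of other islet cells were thus read in every library, while *Hhex* was at the floor.

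The 3 acinar and duct markers analysed summed to 0.527, 0.523 and 0.516 CPM in the control libraries and 2.36, 1.49 and 1.08 CPM in the activated ones. *Krt19* was the most abundant of them and the only marker of this list above the floor in every library, while *Amy2a5* and *Sox9* had at most 2 counts in a library. Over all tested genes, the conditions did not overlap for 5.4%. All activated libraries lay above all control libraries for *Krt19* (log2 fold change 1.79, standard error 0.42, adjusted p = 1 in edgeR). With the replicate number as a block its adjusted p was 0.0548, and with replicate 3 as a batch term it was called. The part of *Krt19* in the receptor results was not tested. The 6 stromal, endothelial and blood markers analysed summed to between 3.67 and 7.05 CPM, and 4 of them were above the floor in every library. Their sum was 4.16, 3.67 and 5.73 CPM in the control libraries and 4.50, 4.89 and 7.05 CPM in the activated ones, higher in the activated library of every replicate number. All activated libraries lay above all control libraries for *Col1a2*, at 1.23, 1.45 and 0.803 CPM in the control libraries and 1.91, 1.67 and 1.93 CPM in the activated ones (log2 fold change 0.66, standard error 0.30, adjusted p = 1), and the part of this list in the receptor results was not tested either. *Cd68* was the most abundant by mean FPKM (0.747), and *Cdh5* and *Adgre1* had at most 1 count in a library.

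Of the 10 receptors, 8 were above the floor of 3 counts in every library, and these 8 also passed the filter on low counts and were tested. *Gpr119* and *Gcgr* were not. *Gpr119*, a Gs-coupled receptor for lipid amides, had 0, 1 and 0 counts in the control libraries and 0, 1 and 0 counts in the activated ones. All 6 libraries were at the floor, so *Gpr119* was not detectable above it at this depth. *Gcgr*, the Gs-coupled glucagon receptor, had 1, 3 and 10 counts in the control libraries and 2, 0 and 10 counts in the activated ones. It was at the floor in all libraries of replicates 1 and 2 and above it in both replicate 3 libraries.

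By mean FPKM the order of levels was *Glp1r* (98.9), *Ffar1* (59.6), *Adra2a* (37.8), *Sstr3* (23.4), *Gipr* (11.0), *Chrm3* (10.3), *F2r* (8.21), *Gpr39* (0.292), *Gcgr* (0.150) and *Gpr119* (0.010). Over all 6 libraries, the FPKM of *Glp1r* (90.7 to 111) did not overlap that of *Ffar1* (12.1 to 84.9). The ranges of *Ffar1*, *Adra2a*, *Sstr3* and *Gipr* each overlapped that of the next gene in the order. *Chrm3* (9.39 to 11.8 FPKM) lay above *F2r* (7.64 to 8.98 FPKM) and *F2r* above *Gpr39* (0.20 to 0.37 FPKM) without overlap, while *Gpr39* overlapped *Gcgr* and *Gcgr* overlapped *Gpr119*.

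The overlaps from *Ffar1* to *Chrm3* were present only with replicate 3 included. In the 4 libraries of replicates 1 and 2, *Ffar1* stood at 76.1 to 84.9 FPKM, *Adra2a* at 47.2 to 51.2, *Sstr3* at 27.2 to 28.0, *Gipr* at up to 13.7 and *Chrm3* at 10.1 to 11.8 FPKM, with no overlap between neighbours. In control replicate 3, *Ffar1* was at 12.1 FPKM, under *Adra2a* (14.4 FPKM) and *Sstr3* (12.9 FPKM). *Glp1r* had the highest FPKM of the 10 receptors in every library.

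The order also rests on the gene lengths behind the deposited FPKM. For *Glp1r* the FPKM and counts implied a length of 1323 bases, against 5811 for its longest protein-coding GENCODE transcript, and for *Ffar1* 746 against 4175. Divided by the GENCODE lengths, a step chosen after the values were seen, the mean CPM per kilobase was 28.5 for *Adra2a*, 22.6 for *Sstr3*, 22.5 for *Glp1r* and 10.6 for *Ffar1*. In the deposited table *Ffar1* spans 903 bases, so its counts may not cover the whole GENCODE transcript. Counts from shorter gene models divided by longer lengths give lower levels by construction. This division therefore does not decide the place of *Glp1r* at the top.

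**Figure D1:**
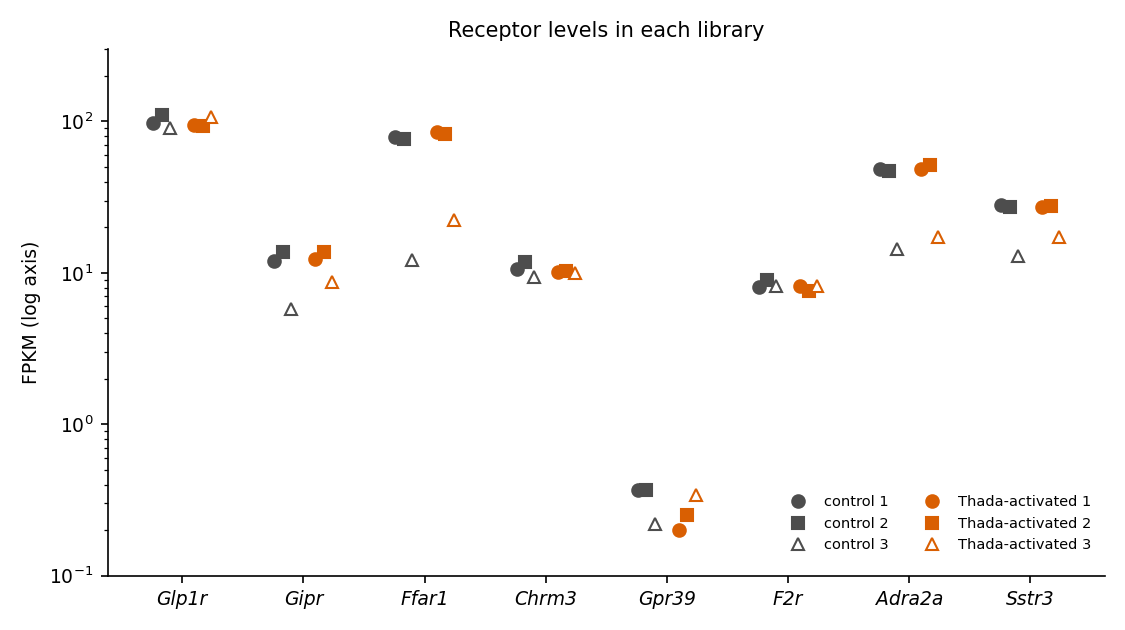
FPKM (log axis) of the 8 tested receptors in each library, with control in grey and Thada-activated in orange and replicate 3 as open triangles. Each point is 1 library. Ffar1, Adra2a, Sstr3 and Gipr were lower in both replicate 3 libraries, and the conditions overlapped for every receptor shown.

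Among Gs-coupled receptors, *Glp1r* and *Gipr* are the incretin receptors, which bind GLP-1 and GIP. *Glp1r* stood at 131, 145 and 121 CPM in the control libraries and 124, 123 and 141 CPM in the activated ones. The conditions overlapped, and no replicate number stood apart. Control averaged 132 ± 12.2 CPM and the activated cells 130 ± 9.90 CPM (SD, n = 3). The log2 fold change was -0.03 (standard error 0.12, 95% interval from -0.32 to 0.25, adjusted p = 1 in edgeR). This interval excludes a change of 1.5-fold in either direction.

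*Gipr* stood at 25.0, 27.6 and 14.0 CPM in the control libraries and 25.6, 29.3 and 19.8 CPM in the activated ones. The conditions overlapped, and both replicate 3 libraries were the lowest of their condition. Control averaged 22.2 ± 7.18 CPM and the activated cells 24.9 ± 4.77 CPM (SD, n = 3), a log2 fold change of 0.16 with a standard error of 0.29 (adjusted p = 1). Its 95% interval ran from -0.54 to 0.86, and from -0.03 to 0.40 with the replicate number as a block, a fit that assumes the same ratio in every number. *Gcgr* was too sparse for a comparison of the conditions, but its counts summed to 20 over the replicate 3 libraries and to 6 over the other 4 libraries. Per library size this is 6.61 times as many (95% exact interval from 2.56 to 20.1, counting error only).

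Among Gq-coupled receptors, *Ffar1* (GPR40) senses long-chain fatty acids and amplifies insulin secretion. It stood at 59.7, 55.8 and 9.06 CPM in the control libraries and 63.1, 62.0 and 16.9 CPM in the activated ones. The replicate 3 libraries were far below all others in both conditions, and the conditions overlapped. Control averaged 41.5 ± 28.2 CPM and the activated cells 47.4 ± 26.3 CPM (SD, n = 3). The log2 fold change of 0.19 had a standard error of 0.78 and a 95% interval from -1.72 to 2.10 (adjusted p = 1 in edgeR), so a change of 1.5-fold was not detectable for *Ffar1* without the block. With the block, which assumes the same ratio in every replicate number, the interval ran from 0.03 to 0.54 (adjusted p = 0.430).

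*Chrm3*, the M3 muscarinic receptor for acetylcholine, stood at 38.6, 42.4 and 35.5 CPM in the control libraries and 37.2, 37.4 and 37.1 CPM in the activated ones. *F2r*, the thrombin receptor PAR1, stood at 25.6, 28.0 and 25.9 CPM in the control libraries and 25.7, 24.0 and 25.5 CPM in the activated ones. For both receptors the conditions overlapped, and the libraries lay within 35.5 to 42.4 CPM for *Chrm3* and within 24.0 to 28.0 CPM for *F2r*. Both replicate 3 libraries were the lowest for *Chrm3*, by a narrow margin. The log2 fold changes were -0.06 (standard error 0.11) for *Chrm3* and -0.08 (standard error 0.10) for *F2r*, each with an adjusted p of 1 in edgeR. Their 95% intervals, from -0.32 to 0.20 for *Chrm3* and from -0.33 to 0.16 for *F2r*, exclude a change of 1.5-fold.

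*Gpr39*, a receptor activated by zinc, which β-cells release with insulin, was above the floor by little. It had 16, 16 and 10 counts in the control libraries and 9, 11 and 15 counts in the activated ones. The conditions overlapped, and the log2 fold change was -0.29 (standard error 0.37, 95% interval from -1.18 to 0.60, adjusted p = 1 in edgeR). It was -0.13 without activated replicate 1 and -0.51 without activated replicate 3. Exons of *Gpr39* share 1202 bases with *Lypd1* on the opposite strand. *Lypd1* had at most 1 count in a library, and how reads from the shared bases were assigned was not tested.

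The Gi-coupled receptors were *Adra2a*, the α2A-adrenergic receptor through which adrenaline inhibits insulin secretion, and *Sstr3*, a somatostatin receptor of primary cilia. *Adra2a* stood at 178, 171 and 53.1 CPM in the control libraries and 175, 186 and 62.1 CPM in the activated ones. *Sstr3* stood at 117, 114 and 53.7 CPM in the control libraries and 113, 114 and 69.6 CPM in the activated ones. For both receptors the replicate 3 libraries lay below all others, and the conditions overlapped. The log2 fold changes were 0.08 (standard error 0.58) for *Adra2a* and 0.06 (standard error 0.35) for *Sstr3*, each with an adjusted p of 1 in edgeR. The 95% interval of *Sstr3* ran from -0.79 to 0.91 and that of *Adra2a* was wider, so a change of 1.5-fold was not detectable in this fit. With the replicate block the intervals ran from -0.04 to 0.25 for *Adra2a* and from -0.08 to 0.28 for *Sstr3*, if the ratio is taken as the same in every number.

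Taking the conditions together, 0 of the 8 tested receptors were called by edgeR at an adjusted p under 0.05 and a fold over 1.5, as against 0 of 12516 tested genes (0%). At an unadjusted p under 0.05 there were 0 receptors and 101 genes (0.807%). DESeq2, run on the 16601 genes with any count, called 0 receptors and 5 genes (0.0301%). With the replicate number as a block, edgeR called 0 receptors and 19 genes (0.152%), and 1 receptor, *Ffar1*, and 1302 genes (10.4%) had an unadjusted p under 0.05. The conditions did not overlap for 0 of the 8 receptors and for 676 of all tested genes (5.4%). The median log2 fold change was 0.01 over the 8 receptors and 0.00 over all tested genes, with 4 receptors higher and 4 lower. These directions were not stable, since leaving out a single library turned the sign for *Glp1r* (0.04), *Gipr* (-0.08), *Ffar1* (-0.29), *Adra2a* (-0.31), *Chrm3* (0.01) and *Sstr3* (-0.22). The library left out for these values was control replicate 2 for *Glp1r* and *Chrm3* and control replicate 3 for the other 4.

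Within replicate numbers, 2 of the 8 receptors had the same direction in all 3 comparisons, against 33% of all tested genes. These were *Gipr* and *Ffar1*, both higher in the *Thada*-activated library of each number. For *Ffar1* the log2 ratio was 0.08 in replicate 1, 0.15 in replicate 2 and 0.90 in replicate 3, with 95% counting intervals from -0.04 to 0.20, from 0.02 to 0.28 and from 0.62 to 1.19. For *Gipr* the log2 ratio was 0.03, 0.09 and 0.49, with an interval that excluded 0 in replicate 3 (0.25 to 0.74). These intervals cover counting error only and compare the libraries, not the conditions.

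In replicate 3 the *Thada*-activated library was also above the control library for *Sstr3* (log2 ratio 0.38, 95% counting interval 0.25 to 0.50), *Adra2a* (0.23, 0.10 to 0.35) and *Glp1r* (0.22, 0.13 to 0.30). In replicate 2, *Adra2a* was likewise higher (0.12, 0.05 to 0.19), while *Glp1r* was lower (-0.24, -0.32 to -0.15), as were *F2r* (-0.23, -0.42 to -0.03) and *Chrm3* (-0.18, -0.34 to -0.03). In replicate 1 the counting interval included 0 for all 8 receptors. *Glp1r* therefore had opposite signs in replicates 2 and 3. Whether the ratio of the conditions differed between replicate numbers was not tested.

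**Figure D2:**
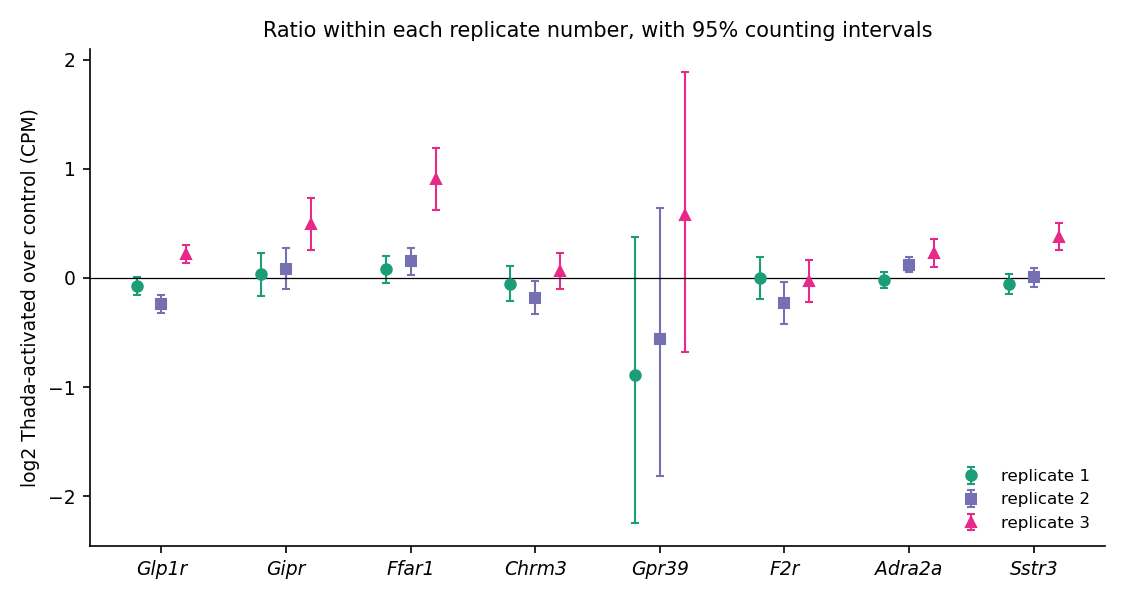
Log2 ratio of CPM, Thada-activated over control, within replicates 1, 2 and 3 for the 8 tested receptors. Bars are 95% counting intervals and cover counting error only. The ratio of Ffar1 was 0.90 in replicate 3 and at most 0.15 in the others.

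Replicate 3 was compared with replicates 1 and 2 as a description, since this split was found in the same libraries. A gene was taken as apart when both replicate 3 libraries lay on the same side of the other 4 libraries and the mean differed by over 1.5-fold. By this rule 4 of the 8 receptors were lower and 0 were higher in replicate 3, against 15.4% (lower) and 15.7% (higher) of all tested genes. The 4 were *Ffar1*, *Adra2a*, *Sstr3* and *Gipr*, and with so few members this count describes these receptors only.

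*Ffar1* had the widest gap, a log2 difference of -2.28 (13.0 against 60.2 CPM, or 4.84-fold lower), and 67 of the 12516 tested genes (0.535%) were as low or lower. *Adra2a* followed at -1.63 (57.6 against 178 CPM, 3.09-fold lower), with 193 genes (1.54%) as low or lower. *Sstr3* was at -0.90 (61.7 against 114 CPM, 1.87-fold lower) and *Gipr* at -0.68 (16.9 against 26.8 CPM, 1.61-fold lower). These folds come from means of log2 values and so differ slightly from the ratios of the mean CPM. *Glp1r*, *F2r*, *Gpr39* and *Chrm3* differed by 0.00, -0.01, -0.05 and -0.10 on the same log2 scale. For *Glp1r* and *Gpr39* this mean joined opposite signs, -0.19 in control and 0.19 in activated cells for *Glp1r*, and -0.68 and 0.57 for *Gpr39*, whose counts were few. *F2r* differed by -0.05 and 0.04 and *Chrm3* by -0.19 and -0.01. In each of the Gs, Gq and Gi classes at least 1 receptor was thus lower in replicate 3, while in the Gs and Gq classes others were not apart.

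The gap was present in each condition by itself. For *Ffar1* the replicate 3 library was 6.36-fold lower in control and 3.69-fold lower in *Thada*-activated cells, and for *Adra2a* 3.29-fold and 2.91-fold. For *Sstr3* it was 2.15-fold and 1.63-fold lower, and for *Gipr* 1.87-fold and 1.38-fold. In all 4 receptors control replicate 3 was the lowest of the 6 libraries, as it was below *Thada*-activated replicate 3 in 67.0% of the 1932 tested genes that were lower in replicate 3.

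β-cell markers differed in replicate 3 as well. Of the 9 tested markers, 4 were apart and lower (*Pdx1*, *Mafa*, *Slc30a8* and *Ucn3*) and 1 was apart and higher (*Ins1*), against 15.4% and 15.7% of all tested genes. *Pdx1*, a transcription factor of β-cell identity, stood at 232, 204 and 106 CPM in the control libraries and 229, 222 and 112 CPM in the activated ones. *Ins1* stood at 2671, 2255 and 4645 CPM in the control libraries and 2927, 2717 and 4644 CPM in the activated ones. *Ucn3*, the urocortin 3 gene of mature β-cells, stood at 26.6, 26.9 and 10.4 CPM in the control libraries and 37.7, 35.9 and 16.6 CPM in the activated ones, and so was higher in the activated library of every replicate number. Its log2 fold change was 0.50 (standard error 0.46, adjusted p = 1), and with the replicate block 0.52 (standard error 0.09, adjusted p = 0.0337), below the fold of 1.5. The δ-cell gene *Sst* was also apart and lower, and *Ppy* apart and higher. *Ppy* was higher in the activated library of every replicate number as well. In edgeR its log2 fold change was 0.34 (standard error 0.30), and with the replicate block 0.33 (standard error 0.09, adjusted p = 0.213). Of the tested stromal, endothelial and blood markers, *Col1a1* was apart and higher and *Cd68* apart and lower. *Pecam1*, an endothelial marker above the floor, was not tested and so not counted. It stood at 0.351, 0.349 and 1.26 CPM in the control libraries and 0.338, 0.460 and 1.08 CPM in the activated ones. Both replicate 3 libraries were thus above the others for *Pecam1*. The sum of the list was highest in both replicate 3 libraries (5.73 and 7.05 CPM, against 3.67 to 4.89 CPM in the others). The part of these markers in the receptor values was not tested, and in these bulk libraries fewer cells of a type and less RNA per cell cannot be told apart.

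**Figure D3:**
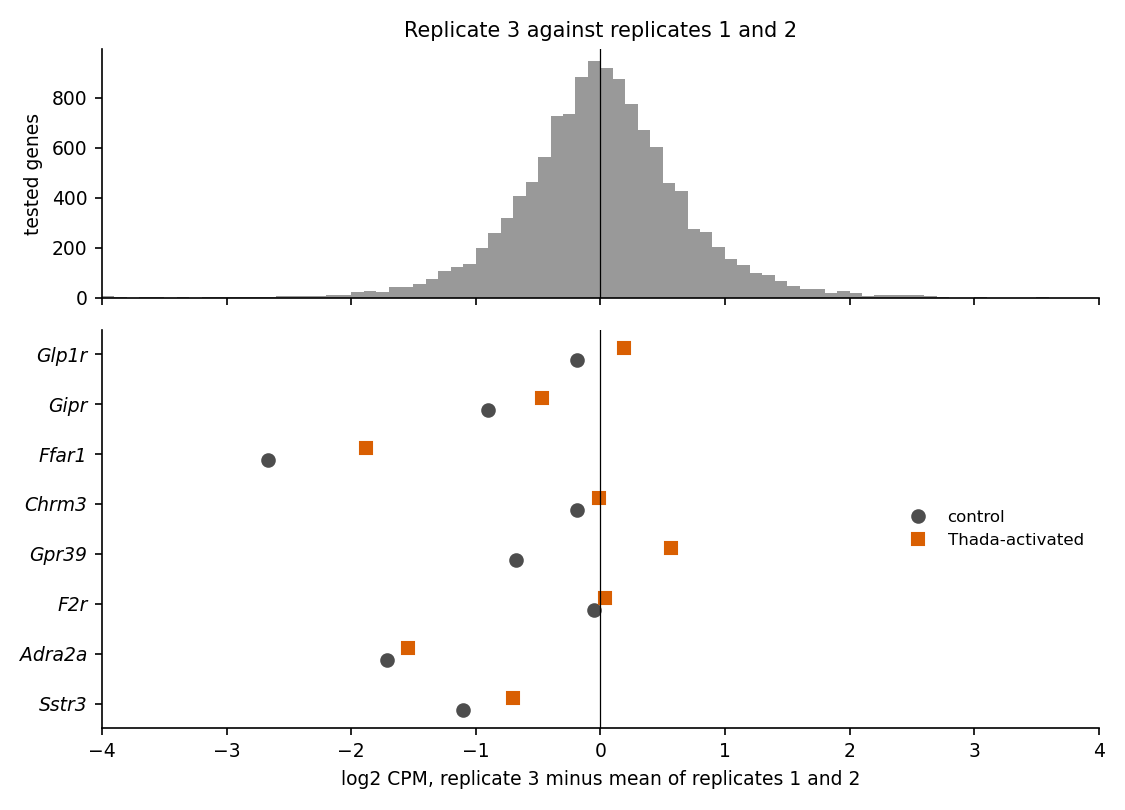
Log2 CPM of replicate 3 minus the mean of replicates 1 and 2, as a histogram over all tested genes above (values beyond 4 in either direction counted in the outermost bars) and for the 8 tested receptors below, with control as circles and Thada-activated as squares. Ffar1 lay at the lower tail in both conditions, while F2r and Chrm3 lay near 0.

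The genes whose centred log2 CPM was closest to that of a receptor over the 6 libraries were found among tested genes with at least 1 CPM. For *Ffar1* these were *Ffar2* (root mean square difference 0.05), *Gm42226* (0.09) and *Th* (0.11), out of 1105 genes that varied enough to be compared. *Ffar2* encodes a receptor for short-chain fatty acids and *Th* the rate-limiting enzyme of catecholamine synthesis. *Ffar2* stood at 13.3, 12.8 and 2.06 CPM in the control libraries and 14.9, 14.5 and 3.58 CPM in the activated ones. *Th* stood at 323, 317 and 46.7 CPM in the control libraries and 336, 346 and 76.9 CPM in the activated ones. Their likeness to *Ffar1* over these libraries is what selected them.

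For *Adra2a* the closest genes were *Apc2*, *Ankrd52* and *Bend3*, each with a root mean square difference of 0.05 on the log2 scale among 2518 genes. For *Glp1r*, which varied little, they were *Zfp944* (0.03), *Zfp780b* (0.03) and *Gdap1* (0.04) among 11784 genes. *Apc2* stood at 38.0, 34.4 and 10.3 CPM in the control libraries and 36.0, 38.6 and 13.2 CPM in the activated ones.

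*Ffar1*, *Ffar2* and *Ffar3* form a cluster on chromosome 7 (GRCm38, minus strand). *Ffar1* spans 30857390 to 30861564 as a gene of 1 exon, *Ffar3* 30854330 to 30856178, and *Ffar2* 30818348 to 30823775. *Ffar3*, also a receptor for short-chain fatty acids, stood at 22.3, 19.8 and 4.53 CPM in the control libraries and 23.6, 23.6 and 8.13 CPM in the activated ones. All 3 genes of the cluster were therefore apart and lower in replicate 3, with log2 differences of -2.28, -2.34 and -1.87 for *Ffar1*, *Ffar2* and *Ffar3*. *Cd22*, which lies on the other side of *Ffar1* from 30865402 to 30880342, was low and was not apart (log2 difference -0.30), at 0.995, 1.05 and 0.745 CPM in the control libraries and 2.31, 1.26 and 1.53 CPM in the activated ones.

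The bases upstream of the annotated starts are shown for *Ffar1*, the receptor with the widest gap in replicate 3, and for *Glp1r*, which was not apart. They are the part of the RefSeq promoter windows (GRCm38.p6) that lies before the GENCODE start, chr7:30861565-30861720 on the minus strand for *Ffar1* and chr17:30901617-30901816 on the plus strand for *Glp1r*. Capitals mark matches on either strand to the E-box CANNTG and the GC box GGGCGG. Of the 10 receptors, 9 had a RefSeq window.
Ffar1: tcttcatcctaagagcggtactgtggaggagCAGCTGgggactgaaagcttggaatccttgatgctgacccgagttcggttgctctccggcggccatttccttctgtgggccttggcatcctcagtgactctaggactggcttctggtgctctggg
Glp1r: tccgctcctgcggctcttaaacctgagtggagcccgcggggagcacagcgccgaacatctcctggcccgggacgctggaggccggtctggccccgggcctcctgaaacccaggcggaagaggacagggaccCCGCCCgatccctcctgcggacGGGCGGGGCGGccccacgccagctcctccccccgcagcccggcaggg
The 156 bases of *Ffar1* held 1 E-box and 0 GC boxes and were 57.1% G or C. The 200 bases of *Glp1r* held 0 E-boxes and 3 GC boxes, of which a pair shared a base, and were 75.0% G or C. Of all 32851 windows, 50.6% held an E-box and 17.5% a GC box in their first 156 bases, and 59.1% and 24.6% in their first 200 bases. A match is a description of the letters, and where transcription started in these cells was not measured.

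The receptors were next placed among the 376 genes that the deposited table annotates with G protein-coupled receptor activity. Of these, 112 were above the floor in every library and 111 were tested. The 10 with the highest mean FPKM were *Glp1r* (98.9), *Ffar1* (59.6), *Tm2d1* (50.6), *Adgrg1* (41.2), *Adra2a* (37.8), *Galr1* (37.2), *Gprc5b* (29.2), *Gpr153* (25.9), *Cckbr* (25.3) and *Gabbr2* (23.9). *Sstr3* was at rank 11, *Gipr* at 21, *Chrm3* at 24, *F2r* at 28, *Gpr39* at 108, *Gcgr* at 121 and *Gpr119* at 294. These ranks rest on the deposited FPKM and so on its gene lengths, which were short for *Glp1r* and *Ffar1*. They also rest on the annotation as deposited. Whether each gene of the set, *Tm2d1* among them, is a receptor was not checked. The set also lacks *Cnr1*, a receptor with a mean FPKM of 5.39. The ranks and counts therefore hold for the annotated genes only.

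edgeR called 0 of the 111 tested genes with this annotation, with 1 at an unadjusted p under 0.05 (0.807% of all tested genes), and DESeq2 called 0. With the replicate block, 0 were called and 15 had an unadjusted p under 0.05, against 10.4% of all tested genes. The median log2 fold change was 0.03, with 66 genes higher and 45 lower. In replicate 3, 35 of the 111 (31.5%) were apart and lower and 22 (19.8%) apart and higher, against 15.4% and 15.7% of all tested genes, and without the 8 tested receptors these counts were 31 and 22 of 103. Among the most abundant, *Galr1*, the Gi-coupled galanin receptor, stood at 128, 126 and 40.4 CPM in the control libraries and 137, 129 and 46.6 CPM in the activated ones. *Gprc5b* was not apart, at 127, 124 and 126 CPM in the control libraries and 123, 128 and 137 CPM in the activated ones.

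Other genes of these signalling routes were read from 8 lists, and none of their genes were called by edgeR without or with the block or by DESeq2. Where the lowest p of a list is given, it is over genes with a mean of at least 1 CPM. Of 39 relatives of the receptors, 26 were analysed and 10 tested, with 7 higher, 3 lower and a median log2 fold change of 0.16. The most abundant by mean FPKM were *Crhr1* (22.6), *Ffar3* (11.6) and *Vipr1* (10.1). *Vipr2* had the lowest unadjusted p (0.143) at a log2 fold change of -0.26 (standard error 0.15). Of 27 other receptors described in islets, 22 were analysed and 19 tested, with 15 higher, 4 lower and a median of 0.05. *Adgrg1* (41.2), *Galr1* (37.2) and *Gprc5b* (29.2) had the highest mean FPKM, and *Cnr1* the lowest unadjusted p (0.129) at a log2 fold change of 0.25 (standard error 0.14). *Cnr1* stood at 28.16, 31.18 and 22.82 CPM in the control libraries and 31.24, 32.13 and 34.28 CPM in the activated ones. In CPM all activated libraries thus lay above all control libraries, by a narrow margin. In FPKM control replicate 2 (5.7) was above activated replicate 1 (5.67). For *Gabbr2* all activated libraries also lay above all control libraries. *Gabbr2* stood at 93.1, 87.9 and 76.8 CPM in the control libraries and 96.5, 96.5 and 99.1 CPM in the activated ones. Over all tested genes, the conditions did not overlap for 5.4%. Without the block, 0 genes of either list had an unadjusted p under 0.05. With it, 3 of the 10 relatives and 5 of the 19 other receptors did, against 10.4% of all tested genes. In the other lists described next, these blocked counts were 1 of 23 G protein subunits, 2 of 24 cAMP pathway genes, 0 of 11 phospholipase C pathway genes, 3 of 18 desensitisation genes, 3 of 6 ligand genes and 4 of 14 genes induced by cAMP or calcium.

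Of 28 G protein subunits, 26 were analysed and 23 tested, with 11 higher, 12 lower and a median log2 fold change of -0.01. *Gnas*, which encodes Gsα, had the highest mean FPKM (2418), followed by *Gng12* (378) and *Gnb2* (184). *Gnas* stood at 4477, 4149 and 3584 CPM in the control libraries and 4217, 4285 and 3147 CPM in the activated ones, so the replicate 3 libraries were lowest but by less than 1.5-fold. The Gq subunit *Gnaq* was the only subunit apart and lower in replicate 3 (log2 difference -0.61), and 6 of the 23 subunits were apart and higher, against 15.7% of all tested genes. *Gng3* had the lowest unadjusted p of the list (0.120) at a log2 fold change of -0.25 (standard error 0.14). It stood at 18.7, 17.6 and 22.4 CPM in the control libraries and 15.3, 17.5 and 16.5 CPM in the activated ones. The conditions did not overlap for *Gng3*, as for 5.4% of all tested genes.

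Of 31 cAMP pathway genes, 30 were analysed and 24 tested, with 12 higher, 12 lower and a median log2 fold change of 0.00. *Prkar1a*, which encodes a regulatory subunit of protein kinase A, had the highest mean FPKM (704), followed by *Prkaca* (92.8) and *Prkar1b* (81.3). *Prkar1a* stood at 3333, 3246 and 1024 CPM in the control libraries and 2621, 2583 and 1115 CPM in the activated ones, and was apart and lower in replicate 3. Its log2 fold change was -0.27 (standard error 0.54, adjusted p = 1 in edgeR). *Adcy9*, an adenylyl cyclase, had the lowest unadjusted p (0.252) at a log2 fold change of 0.23 (standard error 0.18). In the list as a whole, 3 of 24 genes were apart and lower and 3 apart and higher in replicate 3, against 15.4% and 15.7% of all tested genes.

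All 12 phospholipase C pathway genes were analysed and 11 tested, with 6 higher, 5 lower and a median log2 fold change of 0.04. *Plcb4* (17.5), *Prkca* (11.9) and *Prkcb* (11.4) had the highest mean FPKM, and *Itpr2*, an IP3 receptor, the lowest unadjusted p (0.411) at -0.25 (standard error 0.29). *Prkca* stood at 115, 118 and 54.5 CPM in the control libraries and 116, 114 and 69.6 CPM in the activated ones, and was apart and lower in replicate 3.

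Of 25 genes of receptor desensitisation, 23 were analysed and 18 tested, with 10 higher, 8 lower and a median log2 fold change of 0.03. *Rgs10* (59.1), *Rgs4* (40.0) and *Arrb2* (39.1) had the highest mean FPKM. *Arrb1*, which encodes β-arrestin 1, stood at 57.9, 65.3 and 63.8 CPM in the control libraries and 49.9, 47.0 and 54.3 CPM in the activated ones. All *Thada*-activated libraries lay below all control libraries, while the conditions did not overlap for 5.4% of all tested genes. In edgeR the log2 fold change of *Arrb1* was -0.31 with a standard error of 0.11, and its p was 0.0262 before and 1 after adjustment. It was the only gene of the 8 lists at an unadjusted p under 0.05 without the block, where 0.807% of all tested genes had such a p, and its fold was below 1.5.

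Of 13 ligand genes, 10 were analysed and 6 tested, with 4 higher, 2 lower and a median log2 fold change of 0.06. *Cck*, the cholecystokinin gene, had a mean FPKM of 11410, *Npy* 2399 and *Sst* 259. *Gal*, the galanin gene, had the lowest unadjusted p (0.102) at a log2 fold change of 0.75 (standard error 0.39), and stood at 1.29, 1.45 and 2.29 CPM in the control libraries and 2.70, 1.84 and 3.92 CPM in the activated ones. The conditions overlapped for *Gal*. They did not overlap for *Cck*, which was lower in all activated libraries (7007, 6260 and 6561 CPM in the control libraries, 5667, 5957 and 5202 CPM in the activated ones), or for *Npy*, which was higher in all of them (993, 865 and 988 CPM in the control libraries, 1010, 1018 and 1039 CPM in the activated ones). Over all tested genes, the conditions did not overlap for 5.4%. The log2 fold change was -0.24 (standard error 0.15) for *Cck* and 0.11 (standard error 0.13) for *Npy*, each with an adjusted p of 1. For *Cck* the unadjusted p was 0.167 without the block, 0.00541 with it and 0.0326 in DESeq2.

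All 14 genes known to be induced by cAMP or calcium were tested, with 4 higher, 10 lower and a median log2 fold change of -0.08. *Egr1* (39.1), *Junb* (24.2) and *Dusp1* (21.8) had the highest mean FPKM. *Fos* had the lowest unadjusted p (0.0526) at a log2 fold change of -0.34 (standard error 0.14), and stood at 18.3, 15.7 and 17.6 CPM in the control libraries and 12.1, 13.3 and 15.3 CPM in the activated ones. The conditions did not overlap for *Fos*, as for 5.4% of all tested genes, at an adjusted p of 1 in edgeR. In replicate 3, 6 of the 14 genes were apart and higher, against 15.7% of all tested genes, and 2 apart and lower, against 15.4%. The latter were *Egr1* (149, 163 and 63.8 CPM in the control libraries, 117, 130 and 60.4 CPM in the activated ones) and *Btg2*.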

How the data were processed

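The authors deposited estimated counts per gene for each library, without normalisation, and FPKM values in a table of the series. The submitters' notes name Bowtie2, RSEM, DESeq2 and GRCm38, without versions or roles. The deposited table also holds the authors' DESeq2 fold changes and p-values, which were not used. Groups and replicate numbers came from the sample labels. The continuation of a line of the deposited table that is broken inside a text cell was skipped.

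Estimated counts were rounded to whole numbers (between 91.1% and 91.9% of values already were, with no tolerance). Genes were filtered by filterByExpr, scaled by TMM and tested in edgeR 4.0.16 (R 4.3.3) with its quasi-likelihood F-test and robust dispersions, with the condition as the only term and Benjamini-Hochberg adjustment over all 12516 tested genes. A gene was called at an adjusted p under 0.05 and a fold over 1.5. A library at or under 3 counts was at the floor. Intervals of count ratios were exact binomial intervals. Tables were made with Python 3.11.15, pandas 2.3.3 and SciPy 1.17.1. Gene models were taken from GENCODE M21, since strands in the deposited table were wrong for some minus-strand genes, and the strand setting of the counting is not given in the sources used here. The tests were tried on simulated data, from which no result is reported here.

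The members and lists were chosen with earlier results of these data known. Named genes were the 10 receptors, *Thada*, and from each list the 3 with the highest mean FPKM, the tested gene with the lowest p (mean at least 1 CPM) and any called gene. Also named were the 10 genes with the highest mean FPKM among those annotated with G protein-coupled receptor activity. The 3 genes closest to each of the 3 most abundant receptors were named as well. *Pdx1*, *Mafa*, *Slc30a8* and *Slc2a2* among the β-cell markers were named outside this rule, for their values. So were *Pecam1*, *Cdh5* and *Adgre1* among the stromal, endothelial and blood markers. *Cd22* and *Lypd1* were named for their position and *Gnaq* and *Btg2* for their values, all after the values were seen. Genes of the lists that had no entry were not analysed here.

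No source says that equal replicate numbers belong together. Deviations from the condition means had correlations of 0.596, 0.607 and 0.842 between libraries of the same number 1, 2 and 3. Crossing 1 and 2 gave 0.652 and 0.691, which are higher than the same-number values of 1 and 2. With replicate 3 apart in both conditions, replicates 1 and 2 deviate alike whichever way they are paired. These values therefore do not decide how 1 and 2 belong together. The replicate block takes the pairing by number as an assumption. No libraries were duplicates by a chi-square of their counts (at least 1.83 per degree of freedom within a condition).

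Alternatives were DESeq2 1.42.0, its size factors, library sizes without the 20 top genes, no filter, a minimum of 10 counts, the replicate block, replicate 3 as a batch term, replicates 1 and 2 alone, each library left out, limma 3.58.1 on log2(FPKM + 1) and log2(FPKM + 0.1), and, added after the data were seen, GENCODE lengths for the order of levels and each library left out of the replicate 3 differences.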

Additional observations from a re-analysis of the deposited data

How the results depend on the processing

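The count of called genes, 0 without a block, was 5 with DESeq2, 19 with the replicate block, 42 with replicate 3 as a batch term and 70 with replicates 1 and 2 alone and the block. It was 0 in the other 12 of 16 alternatives, each library left out included. *Thada* was called in the same 4 settings. The duct marker *Krt19* was called with replicate 3 as a batch term. No receptor and no gene of the 8 lists was called in any of the 16, and the block changed no other call among them. The lowest adjusted p was 0.197 for a receptor (*Glp1r*, with replicates 1 and 2 alone and the block), 0.000593 for *Arrb1* and 0.0121 for *Fos*, both of the latter at folds below 1.5. Of 127 recomputed receptor fold changes, 113 kept their sign and 14 did not, and the cause was not tested. With libraries left out in turn, the log2 fold change lay between -0.0974 and 0.0407 for *Glp1r*, -0.0804 and 0.349 for *Gipr*, -0.287 and 0.591 for *Ffar1*, -0.305 and 0.432 for *Adra2a*, -0.121 and 0.00808 for *Chrm3*, -0.223 and 0.258 for *Sstr3*, and -0.510 and -0.133 for *Gpr39*. The lowest values of *Gipr*, *Ffar1*, *Adra2a* and *Sstr3* were those without control replicate 3. With replicates 1 and 2 alone and the block, *Sstr3* was at -0.0239, *Glp1r* at -0.155 and *Gpr39* at -0.707. Receptors above the floor numbered 7 with a floor of 10 counts, those with the same direction in every number 3 with DESeq2 size factors, and those apart in replicate 3 numbered 5 with no minimum fold. The order of levels was the same by median FPKM, while 4 of 10 ranks were the same with GENCODE lengths. The latter divides counts that may come from shorter gene models by longer lengths, and so does not decide the order. Counting error limits *Gcgr*, *Gpr119* and *Gpr39*, and the spread with replicate 3 included limits the unblocked comparison of *Ffar1*, *Adra2a*, *Sstr3* and *Gipr*.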
